A study of Arabidopsis thaliana with 30 samples.

Results

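The 10 Aux/IAA genes described here, of Arabidopsis thaliana, were followed in systemic leaves, that is, leaves sampled while waterlogging was applied to the roots. The members were chosen by gene identifier, with earlier results of these data known, so counts over the set only describe it. IAA1, IAA2, IAA3, IAA5, IAA6, IAA7, IAA14, IAA17, IAA19 and IAA29 are 10 of the 32820 genes with a usable level in the deposited tables. All 10 passed the filter of a mean of at least 1 FPKM that left 17491 genes for testing. FPKM is a level of RNA fragments scaled to transcript length and to the mapped fragments of the library. RNA sequencing covered 30 libraries in 10 groups of 3. Wild type Col-0 (WT) was sampled untreated at 0 min and, with and without waterlogging, at 10, 30 and 60 min. Plants labelled rbohD were sampled untreated at 0 min and, with and without waterlogging, at 60 min. RBOHD encodes an NADPH oxidase that makes the reactive oxygen of rapid systemic signals. Each set of 3 repeats was drawn from 15 plants of a genotype at a time, so a library pools plants, and neither the rbohD allele nor plant age was given in the sources used here.

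Aux/IAA proteins repress auxin responses. They bind ARF transcription factors at auxin-responsive promoters and recruit corepressors of the TOPLESS (TPL) family, and auxin acts as the glue that brings them to the receptors TIR1 and AFB for destruction. Many Aux/IAA genes are themselves switched on by ARFs, so their transcripts are commonly used as a readout of auxin response, and transcript levels do not give the level of these short-lived proteins. Within the family, IAA3 is also known as SHY2, IAA7 as AXR2, IAA14 as SOLITARY-ROOT and IAA17 as AXR3, all named after stabilizing mutations with altered growth. IAA19 and IAA29 are known as targets of the PIF growth regulators in shade and warmth, and IAA5, IAA6 and IAA19 have been linked to drought tolerance in Arabidopsis.

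The gene with the largest log2 response to waterlogging among the 10, IAA6, and a gene that showed no called response, IAA19, shared a stretch of promoter sequence, which is shown here for that reason. The stretches lie on chr1:19673788-19673837 (minus strand) before IAA6 and on chr3:5263811-5263860 (plus strand) before IAA19, in the RefSeq genome TAIR10.1, and are written 5′ to 3′. Capitals mark the motifs TGTCTC, known as an auxin response element, and CATGTG, a PIF-binding E-box (the reverse complement of CACATG).
IAA6: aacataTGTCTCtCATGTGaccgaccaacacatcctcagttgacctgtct
IAA19: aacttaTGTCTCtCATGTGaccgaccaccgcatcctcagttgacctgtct
Of these 50 bases 47 were identical (94.0%), and counted from 1 at the 5′ end the differences, with the IAA6 base first, were A4T, A28C and A30G. The longest run without a difference was 23 bases, found in 2 of 27437 protein-coding promoter windows, those of IAA6 and IAA19. Among the other 44 pairs of the 10 genes the longest shared run was 7 to 13 bases.

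The complete windows of 250 bases upstream of the annotated gene starts follow for IAA6 (chr1:19673653-19673902, minus strand), IAA19 (chr3:5263751-5264000, plus strand) and IAA1 (chr4:8360746-8360995, plus strand), the last shown because it had the largest log2 fall among the 10. Capitals mark the motif TGTCTC, a second auxin response element with the letters TGTCGG, the G-box with the letters CACGTG, and the E-box with the letters CACATG, on either strand.
IAA6: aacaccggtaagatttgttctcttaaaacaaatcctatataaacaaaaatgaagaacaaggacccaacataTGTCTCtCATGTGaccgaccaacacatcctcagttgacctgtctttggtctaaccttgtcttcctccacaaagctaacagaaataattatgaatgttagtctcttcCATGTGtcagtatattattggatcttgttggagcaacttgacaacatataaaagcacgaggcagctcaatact
IAA19: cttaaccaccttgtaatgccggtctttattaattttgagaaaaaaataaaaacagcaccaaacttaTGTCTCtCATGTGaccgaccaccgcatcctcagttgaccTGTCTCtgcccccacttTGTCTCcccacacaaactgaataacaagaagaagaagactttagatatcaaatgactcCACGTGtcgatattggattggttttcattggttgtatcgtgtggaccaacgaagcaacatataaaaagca
IAA1: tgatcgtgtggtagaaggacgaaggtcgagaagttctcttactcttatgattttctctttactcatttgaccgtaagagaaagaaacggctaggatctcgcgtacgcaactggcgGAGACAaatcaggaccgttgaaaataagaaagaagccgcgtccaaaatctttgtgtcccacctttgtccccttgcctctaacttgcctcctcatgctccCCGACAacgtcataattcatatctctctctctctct
TGTCTC was present in 4 of the 10 windows (IAA1, IAA5, IAA6 and IAA19) and in 10.9% of all 27437 windows of that length. TGTCGG was in 2 (IAA1 and IAA5; 4.16% of all), CACGTG in 2 (IAA7 and IAA19; 6.49% of all) and CACATG in 3 (IAA3, IAA6 and IAA19; 11.1% of all). The rapid stress response element CGCGTT was in none of the 10 and in 2.59% of all windows. Matches on both strands were counted, in IAA3 the motif and its reverse complement overlap in the stretch CACATGTG, and a match is only a match of letters.

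IAA6 (AT1G52830) lies on chromosome 1 (19672476 to 19673652, minus strand, TAIR10), IAA19 (AT3G15540) on chromosome 3 (5264001 to 5265695, plus strand) and IAA29 (AT4G32280) on chromosome 4 (15583332 to 15584903, plus strand). IAA5 (AT1G15580) lies on chromosome 1 (5365512 to 5366497, minus strand). The other 6 form neighbouring pairs that point away from each other, each with 1 annotated gene between them that does not code for protein. On chromosome 1, IAA3 (AT1G04240, 1128149 to 1129689, minus strand) and IAA17 (AT1G04250, 1136078 to 1138663, plus strand) are 6388 bases apart. On chromosome 3, IAA2 (AT3G23030, 8180646 to 8182095, minus strand) and IAA7 (AT3G23050, 8194606 to 8197161, plus strand) are 12510 bases apart. On chromosome 4, IAA14 (AT4G14550, 8347822 to 8350263, minus strand) and IAA1 (AT4G14560, 8360996 to 8362033, plus strand) are 10732 bases apart. All 10 code for protein, with 2 to 5 exons per annotated transcript, and the values below are per gene.

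The libraries held an estimated 10892474 to 13317399 fragments each, and replicates within a group correlated at 0.988 to 0.993 (Pearson, across genes). RBOHD itself did not settle the rbohD label. At 0 min it was at 20.0 to 21.7 FPKM under that label and 17.1 to 17.6 FPKM in WT, in 60 min controls at 12.4 to 13.1 and 21.2 to 25.0 FPKM, and after 60 min of waterlogging at 11.9 to 15.7 and 13.3 to 13.8 FPKM. It was thus above WT at 0 min, below WT in 60 min controls and overlapping with waterlogging, so these are called the libraries labelled rbohD. An 18S ribosomal RNA gene was at 4050 to 5754 FPKM in all 9 libraries labelled rbohD and in WT waterlogging 60 min replicate 3, and at 1473 to 2640 FPKM in the other 20. The leaf label was borne out: the mesophyll genes RBCS1A and RCA averaged 13642 and 7146 FPKM, while the root genes EXPA7, LRX1 and RHD6 were at 0 in every library and COBL9 did not exceed 0.0449 FPKM. The fifth root marker, PYK10, averaged 101 FPKM. In bulk leaves, fewer cells of a type and less RNA per cell cannot be told apart.

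In untreated leaves the 10 genes spanned a wide range of levels. In WT at 0 min IAA7 was the highest, at 231 ± 5.95 FPKM (mean ± SD, n = 3 throughout). IAA2 followed at 109 ± 3.19, IAA17 at 101 ± 5.02 and IAA3 at 85.6 ± 3.03 FPKM. The middle of the order was IAA14 at 34.9 ± 3.16, IAA1 at 21.2 ± 1.41 and IAA19 at 17.3 ± 1.99 FPKM. The lowest were IAA6 at 6.28 ± 1.60, IAA29 at 4.92 ± 0.954 and IAA5 at 1.49 ± 0.301 FPKM. Of the neighbours in this order only IAA6 and IAA29 had overlapping libraries. The summed level of the 10 genes was 612 ± 18.6 FPKM in WT at 0 min. At 60 min in WT the sum was 592 ± 7.61 in controls and 504 ± 4.91 FPKM with waterlogging, and in the libraries labelled rbohD 576 ± 9.98 and 526 ± 17.9 FPKM, a description with no test. Depth differed with level: an estimated 1535 to 1890 fragments stood behind IAA7 in each library, 31.9 to 212 behind IAA6, 18.7 to 145 behind IAA29 and only 6.13 to 28.9 behind IAA5.

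**Figure D1:**
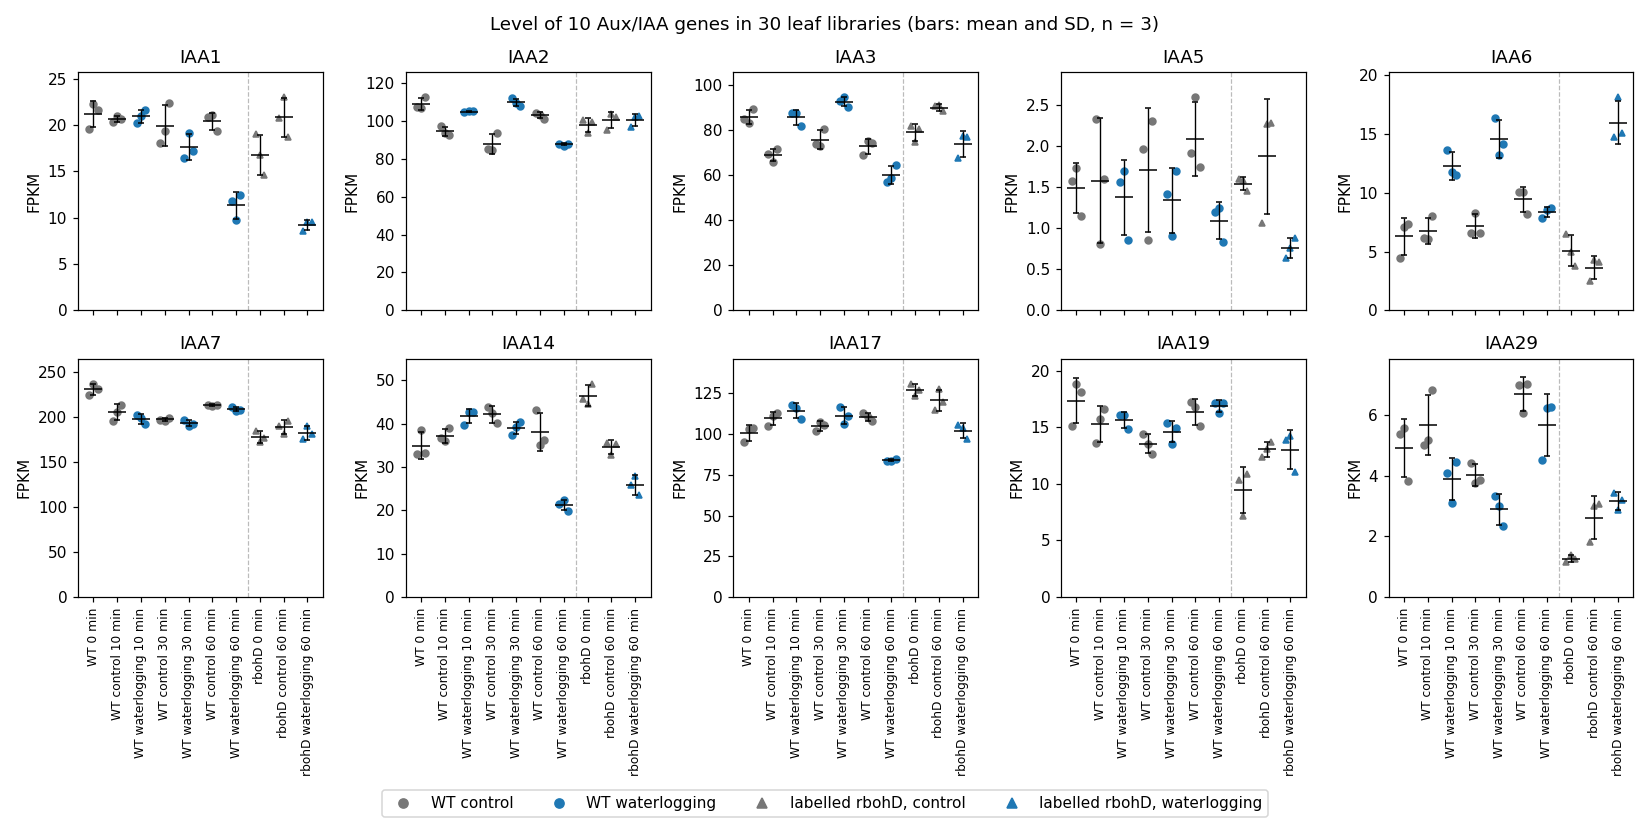
Level of each of the 10 genes (vertical axis, FPKM, linear from 0) in the 30 libraries by group (horizontal axis, groups labelled rbohD to the right of the dashed line), with points for libraries and bars for the mean and SD of 3. IAA6 stands at 11.5 to 16.4 FPKM in the WT waterlogging libraries of 10 and 30 min against 6.10 to 8.32 FPKM in their controls, and at 14.7 to 18.1 against 2.47 to 4.24 FPKM in the libraries labelled rbohD at 60 min.

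IAA6 was the member that rose most, and it rose early. In WT its level was 6.14, 6.10 and 8.0 FPKM in the 10 min controls and 13.6, 11.7 and 11.5 FPKM after 10 min of waterlogging. At 30 min the controls were at 6.55, 8.32 and 6.56 FPKM and the waterlogged leaves at 16.4, 13.2 and 14.1 FPKM. All waterlogged libraries stood above all controls at both times. The change was 1.82-fold at 10 min (log2 difference of log2(FPKM + 1) 0.78, SE 0.17, limma, Benjamini-Hochberg adjusted p = 0.00475) and 2.04-fold at 30 min (0.94, SE 0.17, adjusted p = 0.000332). The added 1 makes such log2 differences smaller than the fold for genes of low level. At 60 min in WT the controls were at 10.0, 10.0 and 8.22 FPKM, and the waterlogged leaves were at 7.89, 8.51 and 8.73 FPKM, so the groups overlapped and the difference was not called (−0.15, SE 0.17, 95% interval −0.51 to 0.21, adjusted p = 0.566). The WT response at 60 min was lower than that at 30 min by a test of the difference itself (−1.09, SE 0.24, adjusted p = 0.00225).

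The same gene was high at 60 min in the libraries labelled rbohD. Controls were at 2.47, 4.24 and 4.13 FPKM and waterlogged leaves at 14.7, 18.1 and 15.1 FPKM, with no overlap. This was a 4.42-fold rise (1.90, SE 0.17, adjusted p = 1.49e-09), from 3.61 ± 0.991 to 16.0 ± 1.86 FPKM. The response differed from that of WT at 60 min by 2.05 (SE 0.24, adjusted p = 4.54e-07), the largest interaction among the 10. Both sides of the contrast contributed to this value: controls labelled rbohD were 1.20 lower in log2 than WT controls (adjusted p = 5.18e-06), and waterlogged libraries 0.85 higher than waterlogged WT (adjusted p = 0.000459). With a term for the ribosomal RNA split in the fit, the interaction was 2.08. Only in the WT waterlogging 60 min group did libraries fall on both sides of the split. The term therefore rests on replicate 3 of that group and cannot tell the split from the genotype label.

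IAA2 and IAA3 were higher with waterlogging than in time-matched WT controls at 10 and 30 min and lower at 60 min. Relative to WT at 0 min, IAA3 at 10 min was at 99.9% ± 3.87 with waterlogging and 80.3% ± 3.28 in controls, and IAA2 at 96.5% ± 0.300 and 86.9% ± 2.12. At 10 min, then, the controls stood below the starting level and the waterlogged leaves near it. IAA3 was at 69.3, 65.7 and 71.3 FPKM in controls and 87.5, 87.4 and 81.7 FPKM after 10 min of waterlogging, 1.24-fold (0.31, SE 0.06, limma adjusted p = 0.000812). At 30 min it was 1.22-fold higher, at 92.5 ± 2.04 against 75.6 ± 4.06 FPKM (0.29, SE 0.06, adjusted p = 0.000901). At 60 min it was lower, at 56.9, 58.6 and 64.3 FPKM against 68.9, 74.8 and 74.1 FPKM in controls (−0.27, SE 0.06, adjusted p = 0.00074). The groups did not overlap at any of these times.

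IAA2 was at 97.1, 93.8 and 92.7 FPKM in 10 min controls and at 105 FPKM in all 3 waterlogged libraries, a 1.11-fold difference (0.15, SE 0.04, limma adjusted p = 0.0369). That call was lost without WT control 10 min replicate 2 (adjusted p = 0.123) or 3 (0.158), and without any 1 of the waterlogging 10 min replicates 1 (0.0953), 2 (0.109) and 3 (0.106). At 30 min IAA2 was again higher, with 85.2, 84.7 and 93.8 FPKM in controls and 112, 109 and 108 FPKM with waterlogging (0.32, SE 0.04, adjusted p = 3.66e-06). Here too the controls stood below the WT 0 min level, at 80.8% ± 4.72, and the waterlogged leaves near it, at 101% ± 1.80. By 60 min IAA2 was lower, at 87.6 ± 0.518 against 103 ± 1.61 FPKM (−0.23, SE 0.04, adjusted p = 0.000142), with no overlap.

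Over the set, 3 of the 10 were higher than time-matched controls and none lower in WT at 10 min, beside 5% of all tested genes called in either direction (4.14% higher and 0.863% lower). At 30 min 3 again were higher and none lower, IAA2, IAA3 and IAA6 at both times, beside 11.9% of all genes called (7.78% higher and 4.1% lower). The groups of these 3 did not overlap at either time, nor did those of the uncalled IAA14 and IAA29 at 10 min and IAA29 at 30 min. Over all tested genes, called or not, groups were apart for 21.8% at 10 min and 29.5% at 30 min. The median log2 difference of the 10 was 0.05 at 10 min and 0.03 at 30 min, against −0.01 and −0.02 over all tested genes. By the limma test of the difference between the 30 and 10 min responses 0 of the 10 were called (3.14% of all genes), while 2, IAA2 and IAA14, had an unadjusted p under 0.05. Without WT control 30 min replicate 3, IAA2 was called there (0.22, adjusted p = 0.0385). Of 3 guard cell markers MYB60 was lower at 30 min (−0.41, adjusted p = 0.00715) and none was called at 10 min, and the sum of the 3 at 30 min was 41.1 to 42.7 FPKM in controls and 34.8 to 38.5 FPKM with waterlogging. None of the 3 vascular markers was called at either time, and their sum at 30 min was 85.8 to 95.7 and 98.1 to 101.6 FPKM. The sum of the 5 mesophyll markers at 30 min was 28005 to 29606 and 29263 to 30370 FPKM. The part of these markers in the differences was not tested.

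**Figure D2:**
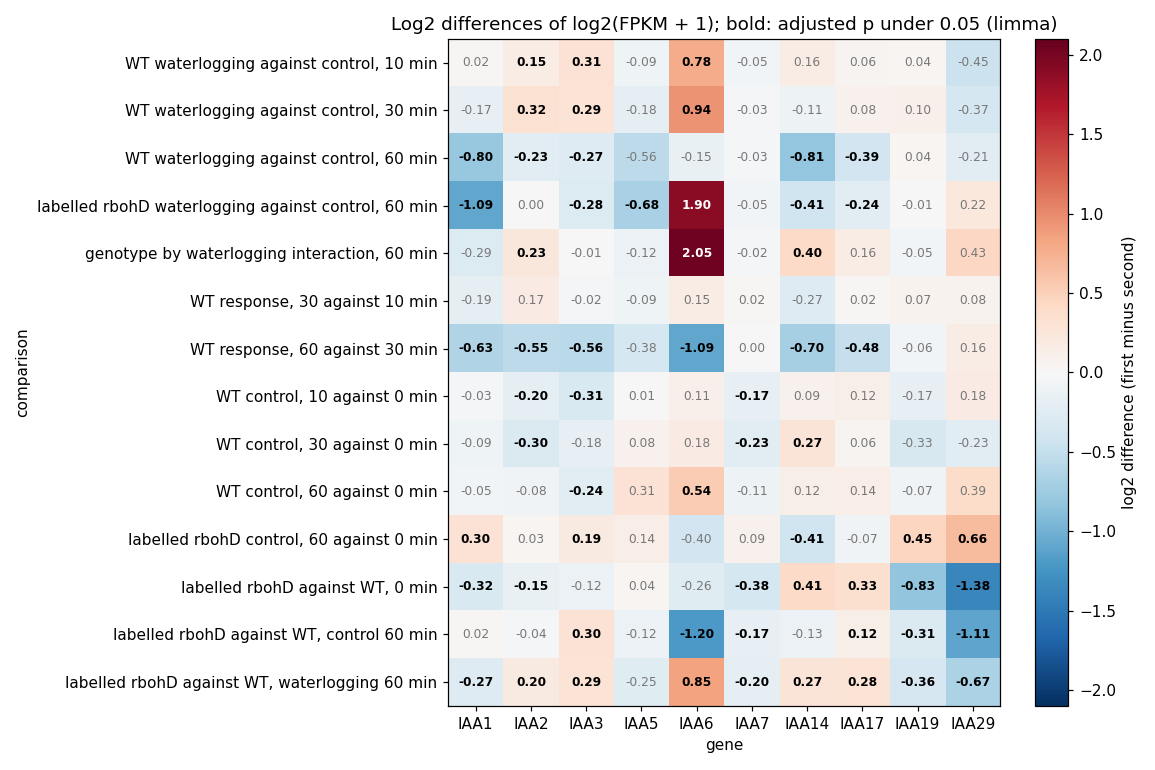
Difference of log2(FPKM + 1) for the 10 genes (columns) in 14 comparisons (rows, first group minus second), with color for the value from blue (lower) to red (higher) and bold for an adjusted p under 0.05. IAA6 carries the largest rises, 0.78, 0.94 and 1.90, and IAA1 and IAA14 the largest called falls in WT at 60 min, −0.80 and −0.81.

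At 60 min in WT the called members were lower. Of the 10 genes 5 fell and none rose, beside 15% of all tested genes called lower, 14.7% higher and 29.7% in either direction. The median of the 10 was −0.25, against 0.01 over all tested genes. IAA14 and IAA1 fell most. IAA14, which holds back lateral root formation in roots, was at 43.1, 35.0 and 36.1 FPKM in controls and 21.3, 22.3 and 19.9 FPKM with waterlogging (−0.81, SE 0.08, adjusted p = 1.08e-08). IAA1, one of the first auxin-induced genes described, was at 20.8, 21.0 and 19.4 FPKM in controls and 11.9, 9.72 and 12.4 FPKM with waterlogging (−0.80, SE 0.09, adjusted p = 4.27e-07). The mean of IAA14 fell by 44.3% and that of IAA1 fell by 44.5%, and neither was called at 10 or 30 min.

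IAA17 fell from 113, 110.4 and 108 FPKM to 83.7, 83.4 and 84.5 FPKM at 60 min in WT (−0.39, SE 0.05, limma adjusted p = 9.05e-07), and IAA2 and IAA3 fell as given above. The 5 called members did not overlap with their controls, and neither did the uncalled IAA5 and IAA7 (206.5 to 211.3 against 211.7 to 213.5 FPKM for IAA7). Over all tested genes, called or not, groups were apart for 45%. IAA5, an early auxin-induced gene of low level, was at 1.20, 1.25 and 0.83 FPKM against 1.92, 2.59 and 1.74 FPKM in controls, which was not called (−0.56, SE 0.22, 95% interval −1.01 to −0.10, adjusted p = 0.0616), but was in the fit of only the groups compared (adjusted p = 0.0257). The response at 60 min was lower than at 30 min for 6 of the 10 by the test of the difference and higher for none, beside 10.6% of all genes lower, 7.38% higher and 18% in either direction: IAA6 as above, IAA14 (−0.70), IAA1 (−0.63), IAA3 (−0.56), IAA2 (−0.55) and IAA17 (−0.48). Their adjusted p ran from 1.89e-07 (IAA2) to 0.00225 (IAA6).

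Markers of leaf cell types also moved at 60 min in WT. Of 3 guard cell markers, MYB60 (−0.47, adjusted p = 0.00107) and KAT1 (−0.28, adjusted p = 0.00211) fell, FAMA was not called, and the sum of the 3 was 36.5 to 37.4 FPKM in controls and 28.2 to 30.8 FPKM with waterlogging. The sum of the 3 vascular markers was 93.9 to 98.1 and 96.8 to 104 FPKM, respectively. Of the 5 mesophyll markers GLK1 (154 ± 4.52 in controls and 116 ± 2.07 FPKM with waterlogging), RCA and RBCS2B were lower without overlap. LHCB2.1 was higher (4141 ± 15.9 and 4585 ± 90.9 FPKM), RBCS1A overlapped, and the sum was 28045 to 29190 and 27474 to 28063 FPKM. No guard cell or vascular marker was at 0, and the part of cell composition in the Aux/IAA differences was not tested. Without WT waterlogging 60 min replicate 3, the library with high ribosomal RNA, the same number of members, 5, was called.

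At 60 min in the libraries labelled rbohD, 5 of the 10 fell and 1 rose, beside 32.7% of all tested genes called lower, 26.3% higher and 59% in either direction. The share of members called was therefore close to that of all genes. IAA1 was at 20.8, 23.0 and 18.8 FPKM in controls and at 8.56, 9.56 and 9.54 FPKM with waterlogging (−1.09, SE 0.09, adjusted p = 5.7e-10). IAA14 was at 35.6, 32.8 and 35.4 FPKM in controls and 25.8, 28.0 and 23.5 FPKM with waterlogging (−0.41, SE 0.08, adjusted p = 5.39e-05). Both pairs of groups stood apart, as did those of all 6 called members and of no other member. Over all tested genes, called or not, 55.9% stood apart.

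IAA3 was 89.8 ± 1.53 FPKM in controls labelled rbohD and 73.8 ± 5.64 FPKM with waterlogging (−0.28, limma adjusted p = 0.000197), and IAA17 was 121 ± 6.47 and 102 ± 4.39 FPKM (−0.24, adjusted p = 0.000202). IAA5 was at 1.07, 2.27 and 2.28 FPKM in controls and at 0.63, 0.76 and 0.88 FPKM with waterlogging (−0.68, SE 0.22, adjusted p = 0.0111). That call on IAA5 was lost without rbohD control 60 min replicate 2 (−0.57, adjusted p = 0.056) or replicate 3 (−0.57, adjusted p = 0.0558). IAA2 did not follow: its libraries were at 95.4, 104 and 102 FPKM in controls and 97.0, 102 and 102 FPKM with waterlogging (0.00, 95% interval −0.08 to 0.09), although quantile normalization gave a called rise (0.11, adjusted p = 0.0325). The guard cell markers MYB60 (−0.81) and KAT1 (−0.74) fell here too, with sums of the 3 markers of 39.3 to 41.0 and 25.1 to 30.3 FPKM. Of the vascular markers SUC2 rose (0.27, adjusted p = 0.000236) and APL fell (−0.40, adjusted p = 0.000184), and the sum of the 3 was 85.8 to 100.7 FPKM in controls and 103.8 to 107.3 FPKM with waterlogging. PYK10 rose as well (0.48), with the root list at 53.9 to 61.8 and 73.4 to 89.1 FPKM. Of the mesophyll markers GLK1 (247 ± 6.13 in controls and 140 ± 7.23 FPKM with waterlogging), RBCS1A, RBCS2B and RCA were lower without overlap. LHCB2.1 was higher (3618 ± 35.5 and 4632 ± 90.5 FPKM), and their sum was 31286 to 34719 and 30213 to 31139 FPKM. The part of these markers in the differences was not tested.

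The waterlogging response at 60 min differed between the libraries labelled rbohD and WT for 3 of the 10, beside 34.4% of all tested genes. These were IAA6 (2.05), IAA14 (0.40, SE 0.11, limma adjusted p = 0.00525) and IAA2 (0.23, SE 0.06, adjusted p = 0.00348). For IAA14 the fall from time-matched controls was smaller in the libraries labelled rbohD, and for IAA2 the fall seen in WT was not found. The IAA14 controls labelled rbohD were themselves lower at 60 min than at 0 min (34.6 ± 1.58 against 46.4 ± 2.41 FPKM). Untreated WT was at 38.1 ± 4.37 and 34.9 ± 3.16 FPKM at these times. IAA1, IAA3 and IAA17 fell in both backgrounds, and their interactions were −0.29, −0.01 and 0.16, none called. IAA1 was called without WT waterlogging 60 min replicate 2 (−0.39, adjusted p = 0.025) or rbohD control 60 min replicate 3 (−0.36, adjusted p = 0.0462), and IAA17 without rbohD control 60 min replicate 2 (0.20, adjusted p = 0.0333) or rbohD waterlogging 60 min replicate 3 (0.19, adjusted p = 0.0357). IAA17 was also called after quantile normalization (0.19, adjusted p = 0.0116) and with nuclear genes scaled to equal totals (0.15, adjusted p = 0.0326). Since the ribosomal RNA split nearly follows the genotype label, the 2 cannot be told apart here.

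Because 6 members are close neighbours, the pairs were set side by side. IAA14 and IAA1 both fell at 60 min, to 60.8% ± 3.5 and 53.5% ± 6.76 of their WT 0 min level in WT. At 0 min they parted under the rbohD label, with IAA14 at 133% ± 6.90 and IAA1 at 79.2% ± 10.3 of WT. IAA3 and IAA17 were both lower than their time-matched controls at 60 min in both backgrounds. At 10 and 30 min in WT IAA3 was higher than its controls and IAA17 was not called (0.06, limma adjusted p = 0.718, and 0.08, adjusted p = 0.347). IAA2 and IAA7 did not share calls for waterlogging against time-matched WT controls: IAA2 was called at all 3 times, and IAA7 at none. Both were called lower in untreated WT at 10 and 30 min than at 0 min. Both were also called lower under the rbohD label than in WT at 0 min.

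**Figure D3:**
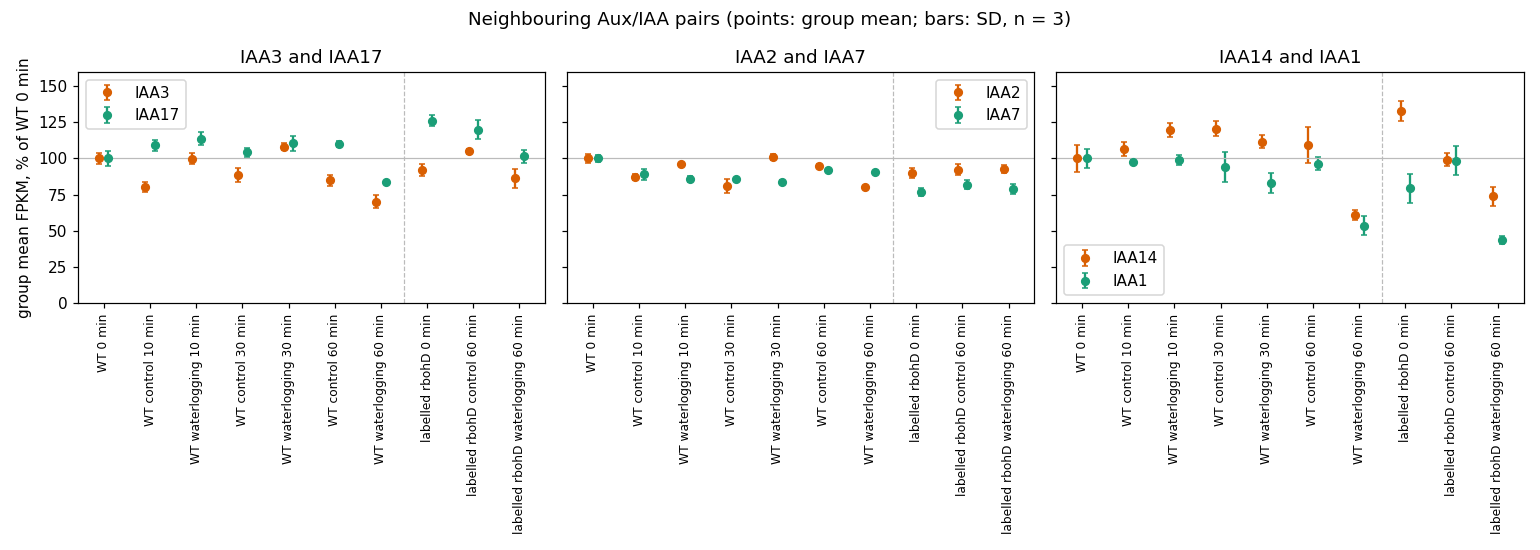
Group mean as percent of the WT 0 min mean (vertical axis) for the 3 neighbouring pairs in the 10 groups (horizontal axis), with bars for the SD of 3 libraries. IAA14 and IAA1 are at 60.8% and 53.5% in WT after 60 min of waterlogging, while IAA7 is at 90.4% and IAA2 at 80.5%.

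IAA7 and IAA19 showed no called response to waterlogging at any time. IAA7 was the most abundant of the 10 in every group. Its waterlogging differences were −0.05 at 10 min, −0.03 at 30 min and −0.03 at 60 min in WT, with 95% intervals that together ran from −0.14 to 0.05. IAA19 was at 17.2, 16.3 and 17.1 FPKM with waterlogging and 17.3, 16.8 and 15.1 FPKM in controls at 60 min in WT, which overlapped (0.04, 95% interval −0.19 to 0.28, limma adjusted p = 0.83). In the libraries labelled rbohD IAA19 was at 13.0 ± 1.73 and 13.0 ± 0.646 FPKM with and without waterlogging (−0.01, 95% interval −0.24 to 0.23). The 23 bases that IAA19 shares with IAA6 before the gene start stood beside differing readouts, 1.90 for IAA6 and −0.01 for IAA19 in the same libraries. The rest of the windows differed as well, and the part of any sequence in these responses was not tested.

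IAA29, a gene of shade and warmth responses, was lower than in matched WT wherever the label was rbohD. At 0 min it was at 1.15, 1.38 and 1.25 FPKM there and at 5.36, 5.57 and 3.82 FPKM in WT, 3.90-fold lower (−1.38, SE 0.15, limma adjusted p = 1.06e-07). It was also lower among 60 min controls, at 1.80, 2.99 and 3.06 against 6.99, 6.05 and 7.02 FPKM (−1.11, SE 0.15, adjusted p = 2.4e-06), and with waterlogging (−0.67, SE 0.15, adjusted p = 0.00123). None of these groups overlapped. Its own response to waterlogging was not called at any time, with values of −0.45 at 10 min, −0.37 at 30 min and −0.21 at 60 min in WT and 0.22 in the libraries labelled rbohD.

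IAA19 was lower beside it. At 0 min it was at 10.4, 7.11 and 10.8 FPKM under the rbohD label and at 15.1, 18.8 and 18.1 FPKM in WT (−0.83, SE 0.11, limma adjusted p = 3.29e-06). At 60 min the differences were −0.31 in controls (adjusted p = 0.0348) and −0.36 with waterlogging (adjusted p = 0.0165). The control call was lost without WT control 60 min replicate 1 (adjusted p = 0.113) or 2 (0.0894) or rbohD control 60 min replicate 1 (0.105) or 2 (0.0713), and the waterlogging call without rbohD waterlogging 60 min replicate 3 (0.107). IAA7 was 1.30-fold lower at 0 min (−0.38, SE 0.04, adjusted p = 9.31e-08) and stayed lower in both 60 min comparisons (−0.17 and −0.20).

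Across the 10 genes at 0 min, 2 were higher and 5 lower where the label was rbohD, beside 32.4% of all tested genes called (16.4% higher and 16% lower). The 2 higher ones were IAA14, at 45.8, 44.4 and 49.1 against 32.9, 38.5 and 33.2 FPKM (0.41, limma adjusted p = 0.000171), and IAA17, at 131, 124 and 127 against 94.9, 103 and 104 FPKM (0.33, adjusted p = 7.79e-06). IAA1 (−0.32) and IAA2 (−0.15) were lower. The call on IAA1 was lost without rbohD 0 min replicate 3 (−0.23, adjusted p = 0.0818) and that on IAA2 without rbohD 0 min replicate 2 (−0.12, adjusted p = 0.0566). Among 60 min controls 6 of the 10 were called (38.6% of all genes), including IAA3, higher by 0.30 (adjusted p = 0.000176). With any single library of that comparison left out, 4 to 5 were called. With the term for the ribosomal RNA split, which rests on WT waterlogging 60 min replicate 3, IAA3 was not called (0.15, adjusted p = 0.34). Neither was IAA7 (−0.16, adjusted p = 0.147). IAA17 and IAA19 lost their calls under the term as well, while IAA6 and IAA29 kept theirs. With waterlogging the term ended the calls of IAA3 (0.19, adjusted p = 0.0842) and IAA19 (−0.38, adjusted p = 0.106), and at 0 min that of IAA2 (−0.16, adjusted p = 0.216). Without the term, IAA17 was called among 60 min controls (0.12, adjusted p = 0.0467), a call lost without any 1 of 5 of the 6 libraries compared, all but rbohD control 60 min replicate 1, with adjusted p of 0.0562 to 0.232. With waterlogging 9 of the 10 were called (34.6% of all genes), 5 higher and 4 lower, against 14.6% and 20% of all genes. There the IAA1 call was lost without WT waterlogging 60 min replicate 1 (adjusted p = 0.103) or 3 (0.149) or rbohD waterlogging 60 min replicate 1 (0.117), and the IAA14 call without rbohD waterlogging 60 min replicate 2 (0.0532). PYK10, the root marker that was above 0, was also higher at 0 min under the rbohD label, where the root list summed to 237 to 242 FPKM against 76.4 to 80.2 FPKM in WT. Of the vascular markers SUC2 (−0.22) and IRX3 (−0.57) were lower, with sums of the 3 of 77.4 to 79.6 FPKM against 87.9 to 95.5 FPKM. Of the guard cell markers KAT1 was lower (−0.40) and FAMA higher (0.35), with sums of 36.4 to 40.0 and 37.4 to 41.5 FPKM. The mesophyll markers summed to 25455 to 26485 FPKM under the rbohD label against 26899 to 28594 FPKM in WT, while GLK1 among them was higher (220 ± 7.13 against 168 ± 3.13 FPKM). The part of these markers in the differences was not tested.

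Levels also moved over time without waterlogging, measured against the WT 0 min libraries that all 3 comparisons share. At 10 min IAA3 (−0.31, limma adjusted p = 0.00104), IAA2 (−0.20, adjusted p = 0.00346) and IAA7 (−0.17, adjusted p = 0.0105) were lower, 3 of 10 beside 7.94% of all tested genes. At 30 min IAA2 (−0.30, adjusted p = 3.33e-05) and IAA7 (−0.23, adjusted p = 0.00107) were lower and IAA14 higher (0.27, adjusted p = 0.0471), beside 3.92% of all genes. At 60 min IAA3 was lower (−0.24, adjusted p = 0.00689) and IAA6 higher (0.54, adjusted p = 0.0409), beside 12.5% of all genes. Several of these calls rested on single libraries. IAA7 at 10 min was lost without WT 0 min replicate 2 (adjusted p = 0.0565) or WT control 10 min replicate 1 (0.0697). IAA14 at 30 min was lost without WT 0 min replicate 1 or 3 or any 1 of the 3 control libraries (adjusted p from 0.0593 to 0.178). At 60 min IAA3 was lost without WT control 60 min replicate 1 (0.0529), and IAA6 without WT 0 min replicate 1 (0.27), or WT control 60 min replicate 1 (0.135) or 2 (0.12).

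In the libraries labelled rbohD, 5 of the 10 were called between 0 and 60 min controls, beside 23.2% of all tested genes. IAA29 rose 2.07-fold (0.66, limma adjusted p = 0.00206), IAA14 fell (−0.41, adjusted p = 0.000191) and IAA19 rose from 9.43 ± 2.02 to 13.0 ± 0.646 FPKM (0.45, adjusted p = 0.00498). The IAA19 call was lost without rbohD 0 min replicate 2 (0.28, adjusted p = 0.055). IAA1 (0.30, adjusted p = 0.0222) and IAA3 (0.19, adjusted p = 0.0206) were also higher. The IAA1 call was lost without rbohD 0 min replicate 2 (0.0512) or 3 (0.152), or rbohD control 60 min replicate 1 (0.0516) or 2 (0.129), all adjusted p. For IAA3 the same held without rbohD 0 min replicate 2 (0.112) or rbohD control 60 min replicate 1 (0.0533) or 2 (0.0638). IAA6 was called lower without rbohD 0 min replicate 3 (−0.56, adjusted p = 0.0332).

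Likeness of pattern was described over the 10 group means, with no test, as Pearson correlation among 12544 genes of at least 5 FPKM. XTH31, a xyloglucan-modifying cell wall enzyme, was the gene most like IAA1 (0.987), EXL5 the gene most like IAA6 (0.974) and KEA3, a chloroplast potassium antiporter, the gene most like IAA17 (0.971). For the other 7 the highest values ran from 0.902 (IAA2) to 0.973 (IAA19), each with a gene that carries only a locus identifier in the files. Within the 10, IAA19 and IAA29 were most alike (0.894), then IAA7 and IAA19 (0.852) and IAA1 and IAA5 (0.845). The least alike were IAA17 and IAA19 (−0.634). All genes were measured in the same libraries, and each best match was the highest among all genes compared, so the values describe these 10 groups only.

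The partners of these repressors are described by counts, which stand beside the percentages of all genes called, 5% at 10 min, 11.9% at 30 min and 29.7% at 60 min in WT and 59% in the libraries labelled rbohD. Of the 19 other Aux/IAA genes 12 were measured well enough to test. In WT none was called at 10 min by limma, IAA18 rose at 30 min (0.31, SE 0.07, adjusted p = 0.00379) and IAA12 fell at 60 min (−0.44, SE 0.10, adjusted p = 0.00101). In the libraries labelled rbohD 3 rose, among them IAA18 (0.45) and IAA4 (0.40), and 5 fell, among them IAA12 (−1.29, from 40.1 ± 2.92 to 16.0 ± 3.21 FPKM) and IAA27 (−0.87).

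Of the 6 auxin receptor genes none was called at 10 min, and AFB3 (−0.27) and TIR1 (−0.20) fell at 30 min in WT. At 60 min AFB1 (0.48, limma adjusted p = 0.000306) and AFB2 (0.31, adjusted p = 1.57e-05) rose and AFB5 fell (−0.17, adjusted p = 0.00872). Under the rbohD label 3 rose and 2 fell, with AFB2 going from 13.5 ± 1.10 to 22.7 ± 0.281 FPKM (0.71, adjusted p = 7e-12) and TIR1 changing by −0.35 in log2. Of 15 ARF genes, the DNA-binding partners, none was called at 10 min and ARF17 fell at 30 min (−0.29). At 60 min in WT 2 rose, ARF6 (0.34) and ARF7 (0.20), and 4 fell, among them ARF10 (−0.45) and ARF8 (−0.43). Under the rbohD label 4 rose and 5 fell, with ARF8 changing by −1.18 (adjusted p = 6.69e-14). Of the 5 TPL family corepressors none was called in WT at any of the 3 times. TPR3 rose (0.63) in the libraries labelled rbohD and 3 fell, among them TPL (−0.31).

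Genes commonly used as auxin outputs did not move in 1 direction. Of 10 tested SAUR genes, small auxin-induced growth genes, 1 fell at 10 min in WT (SAUR14, −0.36), 5 fell at 30 min, among them SAUR15 (−0.72) and SAUR21 (−0.59), and 4 fell at 60 min, among them SAUR24 (−0.55) and SAUR16 (−0.36), with none higher. Waterlogged libraries labelled rbohD had 2 higher, SAUR15 (0.57) and SAUR22 (0.40), and 2 lower. SAUR genes include near-identical copies between which reads can be split, so single values are uncertain. Of 4 tested GH3 genes, which encode enzymes that conjugate auxin, GH3.6 fell at 10 min (−0.30), GH3.5 rose at 30 min (0.35) and GH3.6 rose at 60 min (0.21, adjusted p = 0.0483, limma) in WT. Among the GH3 genes 3 rose in the libraries labelled rbohD, including GH3.3 (1.02) and GH3.6 (0.69).

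Genes of auxin synthesis that averaged 1 FPKM or more fell where they were called. Of 4 tested, YUC6 fell at 30 min (−0.36), and 3 fell at 60 min in WT, among them TAR2 (−0.69, limma adjusted p = 1.04e-05) and YUC2 (−0.36). All 4 fell in the libraries labelled rbohD, TAA1 from 6.29 ± 0.568 to 2.24 ± 0.113 FPKM (−1.17, adjusted p = 1.33e-09). The other synthesis genes averaged under 1 FPKM, were not tested and went both ways. After 10 min in WT, YUC5 (0.313 to 0.630 against 0 to 0.113 FPKM) and YUC8 (0.271 to 0.449 against 0.0885 to 0.173 FPKM) stood above their controls. YUC3 stood below (0 to 0.0878 against 0.112 to 0.300 FPKM). Of 10 transport genes AUX1 fell at 30 min (−0.19) in WT, and at 60 min 3 rose, among them LAX1 (0.30), and 2 fell, AUX1 (−0.25) and LAX3 (−0.22). For the rbohD label 2 rose, PIN4 (0.51) and LAX1 (0.19), and 7 fell, among them ABCB1 (−0.77).

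Of 7 tested PIF and shade regulators, PIF5 rose at 10 min (0.24, limma adjusted p = 0.00493), PIF5 (0.33) and PIF4 (0.23) rose and HFR1 fell (−0.29) at 30 min, and PIF4 rose (0.21) and PIF7 fell (−0.31) at 60 min in WT. In the libraries labelled rbohD 5 rose and none fell. PIF4 went from 46.9 ± 3.35 to 108 ± 4.99 FPKM (1.18, SE 0.05, adjusted p = 5.29e-16), and its response differed from that of WT by 0.98 (adjusted p = 6.34e-11). PIF4 at 0 min was also lower under that label, at 47.4 ± 0.917 against 86.0 ± 0.858 FPKM (−0.85, adjusted p = 1.03e-12), as were IAA29 and IAA19, beside 16% of all tested genes. PIF1, PIF5, HFR1 and ATHB2 were lower there without overlap, and PIF3 and PIF7 overlapped. Where PIF4 rose with waterlogging under that label, IAA19 (13.0 ± 0.646 and 13.0 ± 1.73 FPKM) and IAA29 (2.62 ± 0.709 and 3.16 ± 0.288 FPKM) were not called. The part of PIF4 in the levels of these genes was not tested.

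**Figure D4:**
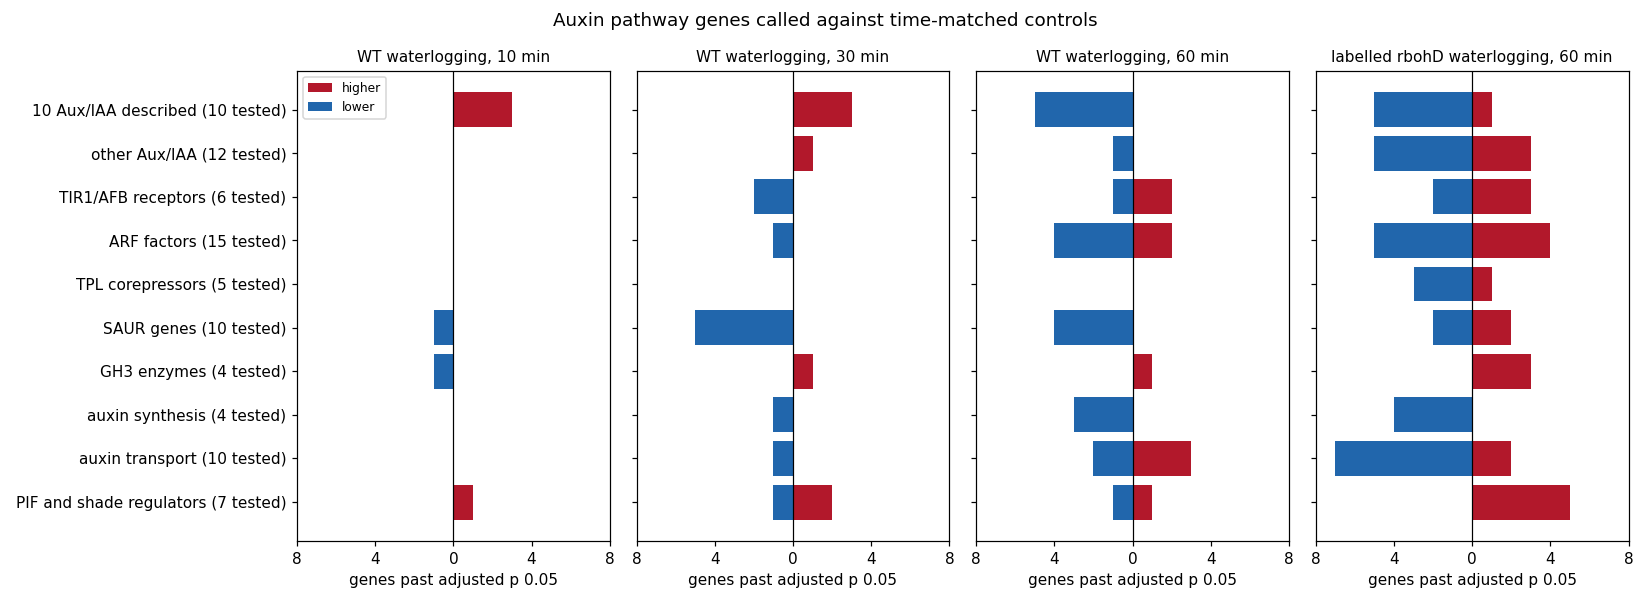
Number of genes past an adjusted p of 0.05 (horizontal axis, lower to the left in blue, higher to the right in red) in 10 lists of auxin and shade genes (rows, with the number tested) for the 4 time-matched waterlogging comparisons. The 10 described genes show 3 higher at 10 and 30 min and 5 lower at 60 min in WT, while the TPL list shows none in WT.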

How the data were processed

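RNA was extracted from leaves and sequenced, per the labels' protocols. Per the submitters' processing notes, Trim Galore 0.6.7, HISAT2 2.2.1, Cufflinks 2.2.1 and Cuffdiff were used with the TAIR10 build. The deposited tables give FPKM as the authors computed them, not counts, 1 table per library. Of 32826 rows, 2 identifiers listed more than once and 2 genes without an OK status were left out, which left 32820.

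FPKM were tested as log2(FPKM + 1) with limma 3.58.1 in R 4.3.3, 10 group means over all 30 libraries, with a gene entering if its FPKM averaged 1 or more, two-sided, with Benjamini-Hochberg adjustment over 17491 genes in each of 14 comparisons and a threshold of 0.05. Intervals are 95% intervals from this fit. The test was tried on simulated data. Fragments per gene were estimated from the authors' FPKM bounds, taken as 2 SD wide, so depth is an estimate. That FPKM are a share of all mapped fragments means that a few very abundant genes can shift all others. Tables and promoter windows were handled in Python 3.11.15 with pandas 2.3.3.

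Groups and replicate numbers came from the sample titles. The labels do not say that equal numbers mark shared plants or days. The p-values weigh a difference between group means against the spread between these libraries, estimated over all 10 groups. The members and the gene lists were chosen with earlier results of these data known. All 10 members are named; from each list, at most the 2 called genes with the largest rise and the 2 with the largest fall are named per comparison. Other pseudocounts, filters, scalings and fits, and fits without each library, were run as alternatives. Promoter sequences are from RefSeq TAIR10.1, in which 99.9% of the nuclear genes of the files have the same boundaries.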

Additional observations from a re-analysis of the deposited data

Results flagged for a closer look

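Results in this part are those in which the response of a gene differed between genotype labels or between times by a limma test of the difference itself. Between the libraries labelled rbohD and WT at 60 min the waterlogging response differed by 2.05 for IAA6, 0.40 for IAA14 and 0.23 for IAA2 on the log2 scale. Between 60 and 30 min in WT it differed by −0.63 for IAA1, −0.55 for IAA2, −0.56 for IAA3, −1.09 for IAA6, −0.70 for IAA14 and −0.48 for IAA17.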

How the results depend on the processing

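No called difference of the 10 genes changed direction under any alternative run. Of the repeats per gene and comparison, 972 with a library left out and 1181 under other settings kept their side of the threshold, 42 and 38 lost a call, and 6 and 13 gained one. IAA5 and IAA29 have no value under a minimum mean of 5 FPKM. Fitting only the groups compared, which leaves fewer libraries for the spread, gave 1 called gene (3 in the fit of all groups) for WT controls at 10 min against 0 min, 0 (3) at 30 min, 0 (2) at 60 min, 2 (5) for the controls labelled rbohD at 60 min against 0 min and 4 (9) for the libraries labelled rbohD against WT with waterlogging. For WT controls at 60 against 0 min a pseudocount of 0.1 gave 1 and quantile normalization 4. A term for the ribosomal RNA split gave 2 (6) for the libraries labelled rbohD against WT in 60 min controls, with IAA3, IAA7, IAA17 and IAA19 no longer called. That term rests on WT waterlogging 60 min replicate 3, so it cannot tell the split from the genotype label. Leaving out single libraries gave 0 to 1 called genes for the WT response at 30 against 10 min, 0 to 2 for WT controls at 60 against 0 min (0 without WT control 60 min replicate 1, and 1 without WT 0 min replicate 1 or WT control 60 min replicate 2), and 2 to 5 for the controls labelled rbohD (2 without rbohD 0 min replicate 2, and 3 without rbohD control 60 min replicate 1 or 2). For the libraries labelled rbohD against WT in 60 min controls, leaving out any single library gave 4 to 5 called genes (6 with all libraries). IAA2 at 10 min in WT was not called after quantile normalization (adjusted p = 0.146) or in the fit of only the groups compared (0.121), a fit in which IAA5 at 60 min in WT was called (0.0257). Same-numbered libraries did not deviate together (correlation −0.145 to 0.0598 over 12 pairs), so the numbers were not taken as a pairing. With the replicate number as a block the called genes numbered 3 at 10 min, 3 at 30 min and 5 at 60 min in WT, 6 in the libraries labelled rbohD and 3 for the interaction, as without it, and 2 calls were lost elsewhere (IAA14, WT controls at 30 against 0 min, and IAA17, genotype labels in 60 min controls). No scaling moved the median difference of all genes beyond 0.0678. Estimated fragments behind IAA5 limit what could be detected for it.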
